A study of Mus musculus with 9 samples.

Results

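The Myb and E2F family transcription factors described here are 5 genes, Myb, Mybl1, E2f2, E2f7 and E2f8. They were taken as every row of the authors' deposited table of significant changes with the symbol Myb or Mybl1 or a symbol starting with E2f. These are 5 of the 964 rows of that table and of the 31648 rows of the array, and each gene has 1 row. The authors listed a row when it differed between groups at p under 0.001 and by at least 2-fold, so the differences of the members between groups are what chose them. Those differences are therefore given as a description, with no test.

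The arrays measured RNA of CD11b+Gr1+ cells sorted from mouse spleen, a gate that takes in neutrophils, inflammatory monocytes and their immature precursors. The 6 tumour-bearing samples each came from 1 L2-Cre;p120f/f mouse, and the 3 control samples were pools, each of cells from 3 disease-free L2-Cre;p120+/f animals. Both groups carried L2-Cre, a transgene that drives recombination in oral and oesophageal squamous epithelium rather than in blood cells, and both carried at least 1 floxed allele of the p120 catenin gene. The strain was a mixed C57BL/6x129 background, and the age of the mice was not used because the label field holds an embryonic age. Tumour, genotype and pooling differ together between the groups and cannot be told apart. None of the 4 genes that define the gate, Itgam, Ly6g, Ly6c1 and Ly6c2, has a named row, so the label of the cells could not be checked on them.

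E2F proteins bind the promoters of genes needed for DNA synthesis and are held in check by the pocket proteins of the Rb family until cyclin-dependent kinases release them at the end of G1. E2F2 is an activator of such genes, whereas E2F7 and E2F8 are atypical members that repress E2F targets later in the cycle and are themselves E2F targets. Myb maintains proliferating blood progenitors and activates genes of neutrophil primary granules, and its expression falls as granulocytes mature. Mybl1, also called A-Myb, is a related factor best known from male germ cells and dividing B cells. Another family protein, B-Myb, acts with the MuvB complex on late cell-cycle genes, many of which carry a promoter element called CHR.

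RefSeq promoters (build GRCm38.p6, 250 bases before to 50 bases after the annotated start) were at hand for 4 of the 5 members, all but Mybl1. They are shown because the literature places E2F and CHR elements in such promoters, with matches to those elements in capitals. The letters searched on both strands were TTTCCCG or TTTCGCG or else TTTGCCG or TTTGGCG for a short E2F form, each followed by C for a longer E2F form, and TTTGAA for CHR. E2f2 lies at chr4:136172024-136172323 (plus strand), E2f7 at chr10:110745189-110745488 (plus), E2f8 at chr7:48881547-48881846 (minus) and Myb at chr10:21160935-21161234 (minus), each written 5′ to 3′ in the direction of the gene.
E2f2: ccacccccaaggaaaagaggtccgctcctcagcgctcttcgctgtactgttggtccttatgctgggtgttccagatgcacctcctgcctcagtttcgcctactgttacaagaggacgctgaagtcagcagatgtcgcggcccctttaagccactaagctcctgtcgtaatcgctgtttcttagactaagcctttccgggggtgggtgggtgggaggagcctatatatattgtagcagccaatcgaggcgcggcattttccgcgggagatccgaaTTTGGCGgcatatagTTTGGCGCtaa
E2f7: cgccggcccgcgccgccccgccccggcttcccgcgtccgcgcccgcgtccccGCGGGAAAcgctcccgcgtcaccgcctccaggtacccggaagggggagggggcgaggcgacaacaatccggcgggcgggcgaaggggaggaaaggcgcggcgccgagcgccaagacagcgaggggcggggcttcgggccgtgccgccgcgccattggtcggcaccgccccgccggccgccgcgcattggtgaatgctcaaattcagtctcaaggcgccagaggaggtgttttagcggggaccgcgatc
E2f8: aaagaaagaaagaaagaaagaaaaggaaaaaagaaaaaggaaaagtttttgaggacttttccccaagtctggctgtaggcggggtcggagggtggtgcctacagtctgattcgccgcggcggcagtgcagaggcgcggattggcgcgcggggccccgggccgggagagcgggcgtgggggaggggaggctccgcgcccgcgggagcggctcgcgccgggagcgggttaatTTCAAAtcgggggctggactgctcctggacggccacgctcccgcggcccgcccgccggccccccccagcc
Myb: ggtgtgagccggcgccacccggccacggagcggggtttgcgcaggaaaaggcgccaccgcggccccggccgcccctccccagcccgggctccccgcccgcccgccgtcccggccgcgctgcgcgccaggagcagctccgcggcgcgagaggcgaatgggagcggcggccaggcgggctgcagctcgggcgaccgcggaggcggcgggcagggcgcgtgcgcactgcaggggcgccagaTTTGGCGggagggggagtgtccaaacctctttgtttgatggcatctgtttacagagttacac

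These letters were chosen after the sequences had been read, the short E2F form among them, so the matches in the members are a description. The E2f2 promoter held 2 E2F matches, both after the start, at 24 to 30 and at 39 to 46 bases counted from 0 at the start, and the second was of the longer form. Myb held 1 match of the short form, at -12 to -6. E2f7 held 1 match of the longer form on the opposite strand, at -198 to -191. By the longer form alone E2f2 and E2f7 would hold 1 match each and Myb 0. E2f8 held no E2F match by these letters and 1 CHR match on the opposite strand, at -20 to -15. The short E2F form occurs in 6.7% of 32851 mouse promoters of this length, the longer form, which contains it, in 2.26%, and the CHR letters in 17.9%. A second RefSeq promoter of E2f2, farther into the gene, held a CHR match and no E2F match. Searched likewise, the Myb-binding letters CAACNG or TAACNG, which occur in 49.7% of all promoters, were present in both E2f2 promoters and in none of the other 3. A match describes letters and is not evidence that the factor binds there.

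All 5 members were higher in the tumour-bearing mice, by 2.06-fold to 3.06-fold. In each of them the lowest mouse lay above the highest control pool, as the choice of the rows makes likely. Over all rows 15.4% were separated in this direction.

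E2f2, the activator, stood at 8.68, 8.65 and 8.66 in control pools 1 to 3 on the log2 scale. In the 6 mice it ranged from 9.66 to 9.96 with a median of 9.71. The 3 pools were nearly equal, and mice 3 and 5, at 9.94 and 9.96, stood above the other 4. The group means were 9.77 ± 0.14 (SD, n = 6 mice) and 8.66 ± 0.02 (SD, n = 3 pools), a difference of 1.11 ± 0.08 (SE of the limma fit). Mice 2 and 6 hold the same deposited value to 5 decimals. Such exact ties between arrays are common in the deposited values, where 14389 rows (45.5%) have at least 1, and E2f2 is the 1 member that has one. In E2f2 the shared value is the lowest of the 6 mice. Among list genes described below, Rbl1 and Ccne2 tie at their lowest mouse value in mice 5 and 6. Rsad2 ties at its highest in mice 2 and 5. How the ties arose is not known. Mouse order, SD and correlations that include a tied value may depend on it, which was not tested.

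The repressors E2f7 and E2f8 were higher too. E2f7 stood at 6.94, 6.78 and 6.94 in the pools and between 8.07 and 8.42 in the mice, with a median of 8.19. Its difference was 1.34 ± 0.09 (SE), or 2.53-fold, from 6.89 ± 0.09 (SD, n = 3) to 8.22 ± 0.14 (SD, n = 6). E2f8 stood at 7.79, 7.81 and 7.87 in the pools and between 8.84 and 9.03 in the mice, with a median of 8.99. E2f8 was the most even member among the mice, with means of 8.96 ± 0.08 (SD, n = 6) and 7.83 ± 0.04 (SD, n = 3) and a difference of 1.13 ± 0.05 (SE).

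Myb, the progenitor factor, had the largest difference of the 5. It stood at 7.39, 7.03 and 7.39 in the pools and between 8.68 and 9.22 in the mice, with a median of 8.84. Pool 2 was the lowest pool and mouse 2 the highest mouse, and 1.28 log2 units separated the lowest mouse from the highest pool. The means were 8.88 ± 0.21 (SD, n = 6) and 7.27 ± 0.21 (SD, n = 3), a difference of 1.61 ± 0.14 (SE), or 3.06-fold. Among the 513 rows of the authors' table that were higher in tumour-bearing mice, Myb ranked 165 by size, E2f7 276, E2f8 393, E2f2 417 and Mybl1 466.

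Mybl1, the A-Myb gene, had the smallest difference of the 5. It stood at 5.0, 4.65 and 4.97 in the pools and between 5.71 and 6.23 in the mice, with a median of 5.81. Mice 1 and 2 exceeded 6 while the other 4 lay between 5.71 and 5.84. The means were 5.92 ± 0.23 (SD, n = 6) and 4.88 ± 0.19 (SD, n = 3), a difference of 1.04 ± 0.15 (SE). All 3 pools and 4 of the 6 mice were below the median of their own array, which makes the size of this difference uncertain, since undetected rows were not marked. It fell to 0.76 when a pseudocount of 16 was added on the linear scale. The table's smallest listed difference is 1.00 in size, and 226 rows without a name lay between 0.9 and 1 with a p under 0.001 in an equal-variance two-sample comparison, the nearest also at 1.00 after rounding. The differences of E2f8, E2f2 and Mybl1 lay within their standard errors of one another.

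**Figure D1:**
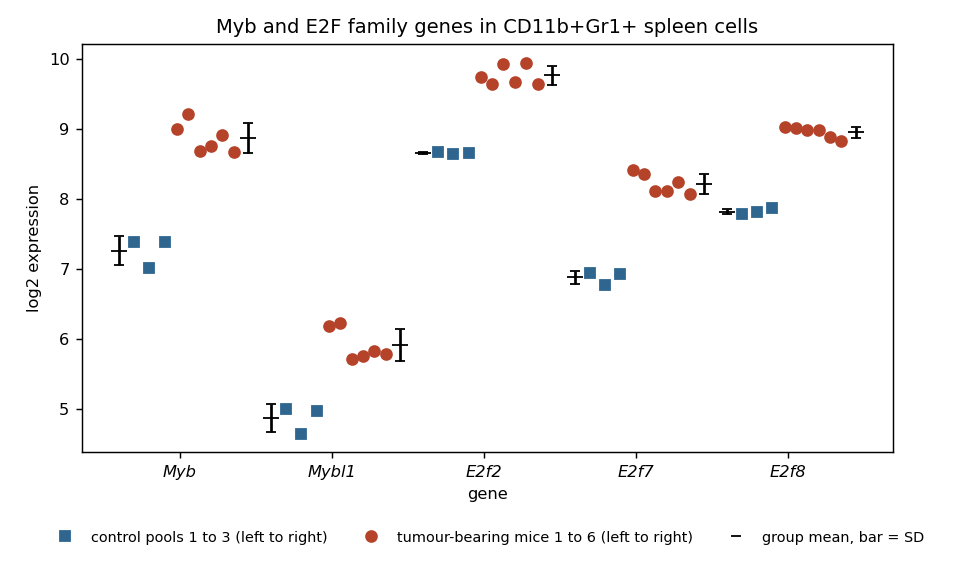
Log2 expression (vertical axis) of the 5 members (horizontal axis) in 3 control pools (blue squares) and 6 tumour-bearing mice (red circles), with group means and SD bars. All mice lie above all pools for every member; mice 1 and 2 stand apart for Mybl1, and mice 3 and 5 are the highest for E2f2.

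Other E2F and Myb genes could not be set beside these. Of E2f1, E2f3, E2f4, E2f5, E2f6 and Mybl2, 0 of 6 have a named row, and they were not analysed here. Names on this array come only from the authors' table, so every list gene that can be read had already been selected on these samples. The counts and limma adjusted p values of list genes below largely follow from that choice. They are not independent evidence of a change or of a direction. Of 149 genes in 8 lists around the members, 77 have a named row; by limma with Benjamini-Hochberg adjustment over all rows 71 rose and 6 fell. Of all 31648 rows 23.2% changed, 14.3% upward and 8.83% downward, and their median difference was 0.02. Higher rows were 61.9% of those that changed, and 52.9% after quantile normalization (4014 higher and 3570 lower).

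Of 11 pocket proteins, partners and MuvB genes, 3 were named and all 3 rose. Foxm1, a late cell-cycle activator that works with MuvB, rose by 1.86 ± 0.08 (SE), and its 6 mice lay between 8.58 and 8.92. Rbl1, the pocket protein p107 and itself an E2F target, rose by 1.49 ± 0.13, and Lin9, a core MuvB subunit, by 1.47 ± 0.15. The limma adjusted p of the 3 was at most 0.000168.

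In the list of G1 cyclins, kinases and inhibitors, 8 of 20 genes were named and all rose, with a median difference of 1.45. Cyclin E2 (Ccne2) rose by 1.73 ± 0.13 (SE), the phosphatase gene Cdc25a by 1.67 ± 0.11, cyclin F (Ccnf), whose product marks E2F proteins for degradation, by 1.49 ± 0.11, and Cdkn2c, an inhibitor of Cdk4 and Cdk6, by 1.47 ± 0.07. The remaining 4 had differences from 1.04 upward. The highest limma adjusted p of the 8 was 0.00201.

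Among textbook E2F targets of the G1/S step, 28 of 43 were named and all rose, by 1.15 to 2.48 with a median of 1.66. The largest differences were those of Rfc4, which helps load the replication clamp (2.48 ± 0.13 SE), Rrm1, which makes deoxynucleotides (2.36 ± 0.15), Mcm6, a part of the replicative helicase (2.00 ± 0.20), and Dtl, an adaptor of a replication-coupled ubiquitin ligase (1.95 ± 0.17). Late cell-cycle genes of MuvB, B-Myb and FoxM1 were named for 26 of 28, and all rose, with a median of 2.09. They were led by the checkpoint kinase gene Bub1 (2.48 ± 0.16), the motor gene Cenpe (2.47 ± 0.13), the spindle gene Prc1 (2.45 ± 0.11) and the motor gene Kif11 (2.43 ± 0.13). The highest limma adjusted p was 0.00256 in the first list and 9.33e-05 in the second. All 5 members had smaller differences than the medians of these 2 lists, which was not tested.

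The primary granule list of 8 had 5 named genes, and each of the 5 rose, by between 3.25 and 4.42, with Ctsg (cathepsin G), Mpo (myeloperoxidase), Prtn3 (proteinase 3) and Ms4a3 in front. Of 19 progenitor regulators Gfi1, a repressor that directs granulocyte development, was the 1 with a name, and it rose by 1.14 ± 0.13 (SE). Kit, Cd34, Flt3 and Myc are among the 18 without a named row. The mature neutrophil list of 14 had 6 named genes, each of which fell, by 1.01 to 3.32 on the log2 scale, with the largest falls in Cd101, Il1b, Clec4d and Rsad2. Il1b and Rsad2 are not specific to mature neutrophils, and what their falls reflect was not tested. In sorted cells measured in bulk, a larger share of immature or dividing cells and more RNA per cell cannot be told apart. Markers of other cell types, and of the monocytes that the gate itself takes in, moved as well. The 6 named of 9 monocyte, macrophage and dendritic cell markers fell (mean level 8.08 ± 0.18 SD in 6 mice, 10.12 ± 0.15 in 3 pools). Of 8 B cell markers Cd22 fell and of 5 platelet markers Thbs1 fell, each the only one named. The only named marker of 8 erythroid ones, Tfrc, and of 4 basophil and mast cell ones, Ms4a2, rose, and the T cell and squamous lists had 0 named. Tfrc is not confined to erythroid cells, and a list with 1 named gene cannot identify a cell type. The part of these cell types in the members' levels was not tested.

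**Figure D2:**
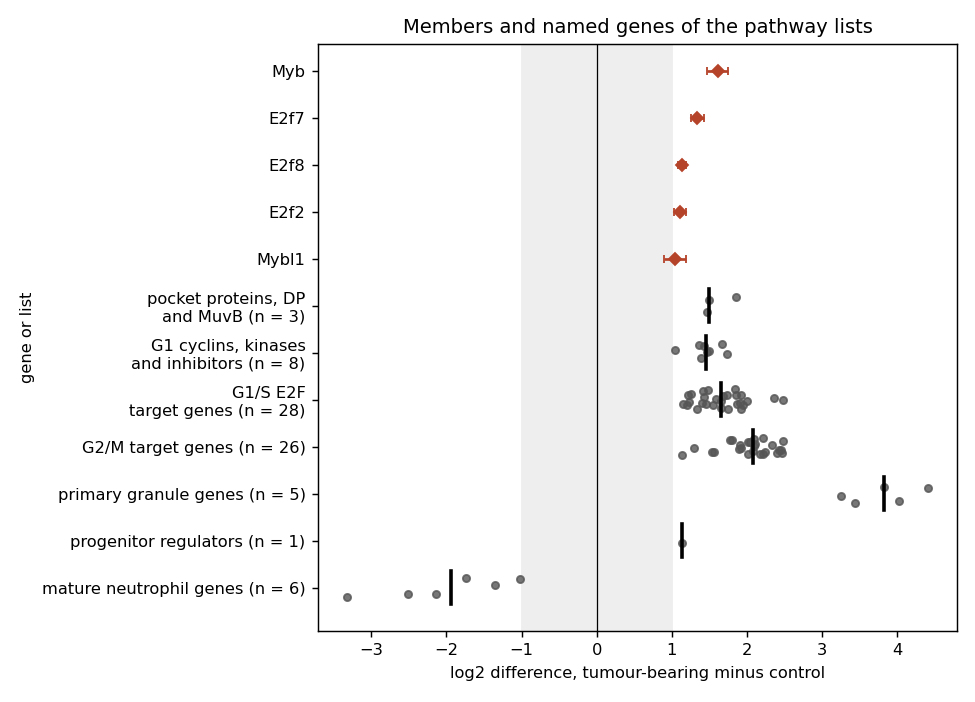
Log2 difference, tumour-bearing minus control (horizontal axis), of the 5 members (red diamonds, bars are SE) and of every named gene of 7 pathway lists (grey points, black line is the list median). The grey band from -1 to 1 holds no point because only rows past 2-fold have names; primary granule genes lie at 3.25 or above, and mature neutrophil genes lie below -1.

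The spread of the members among the 6 mice entered the authors' p and so helped to choose them, and it is given as a description, with no test. Rows of like level (mean within 0.5 log2 units) are mostly outside the authors' table and did not pass that p. The SD of Myb was 0.21 where the median of 2175 such rows was 0.09, and 90.8% of them had a lower SD. Mybl1 exceeded 81.4% of its 7085 rows, E2f2 78.8% of 1017 and E2f7 72.0% of 3108. E2f8 was below the median of its rows, with an SD of 0.08 and 41.1% of 2055 rows lower.

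Which mouse is high or low within the group does not enter the authors' p. From mouse to mouse, 0 of the 10 pairs of members had a correlation that passed the correction. For Myb and E2f7, mice 1, 2 and 5 were the 3 highest of both genes, and mouse 6 was the lowest for both. Pearson's r over 6 mice was 0.889 (exact permutation p = 0.0208, two-sided, adjusted p = 0.0694 over 10 pairs of members), and Spearman's rho was 0.943 (exact p = 0.0167, adjusted p = 0.167). Without mice 1 and 2, which lie farthest from the median of Myb, r was 0.970 over 4 mice.

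In the other 9 pairs at least 1 gene split the mice into separate sets, a limit set after the members' values had been seen. A gap wider than 0.5 of the range split the mice into sets of 2 and 4 in Mybl1 (0.696 of the range), E2f2 (0.645) and E2f8 (0.525), and no set has 6 mice. Pooled over these sets all the same, as planned, Myb and Mybl1 had r = 0.914 (exact permutation p = 0.00556, adjusted p = 0.0556; r = 0.764 without the 2 mice farthest from the median of Myb) and Mybl1 and E2f7 had r = 0.922 (exact p = 0.0153, adjusted p = 0.0694; r = 0.664 without 2 mice), values that the sets can produce. The 3 pairs of E2f8 with Myb, Mybl1 and E2f7 had r from 0.527 to 0.567, and the 4 pairs of E2f2 from -0.40 to -0.07, with unadjusted p of 0.199 or more. The sets differ between genes. Mybl1 set mice 1 and 2 above the rest, the same mice that ranked first and second for Myb, E2f7 and E2f8. E2f2 set mice 3 and 5 above the rest. Mouse 2, the highest for Myb and Mybl1, shared the lowest E2f2 value with mouse 6, the exact tie described above. Of the 10 planned pairs 0 passed after adjustment by either coefficient, with 3 under an unadjusted p of 0.05 by Pearson's r and 1 by Spearman's rho. The smallest p that 6 mice allow is 0.00139 for r and 0.00278 for rho.

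The members were also set against the mean of the named genes of 4 lists in the same mice, 20 relations in all. None of the 20 passed the correction by either coefficient. For E2f7 and the G1/S targets r was 0.945 (exact permutation p = 0.00556, adjusted p = 0.111) and rho 0.829 (p = 0.0583, adjusted p = 0.233), and r was 0.683 without mice 1 and 2. Myb and the primary granule genes had r = 0.813 (exact p = 0.0431, adjusted p = 0.151) and rho = 0.943 (p = 0.0167, adjusted p = 0.111), with r = 0.607 without those mice. Mouse 6 stood apart in the mean of the primary granule genes, at 11.32 against 11.76 to 12.16 in the remaining 5. That step is 0.530 of the range of the 6 mice, and without mouse 6 r was 0.888 over 5 mice (exact p = 0.0583, adjusted p = 0.361). E2f7 and the primary granule genes had r = 0.836 (exact p = 0.0292, adjusted p = 0.146), rho = 0.886 (p = 0.0333, adjusted p = 0.167) and r = 0.614 without mice 1 and 2, and r was 0.888 without mouse 6 (exact p = 0.108, adjusted p = 0.361). E2f8 and the G2/M genes ranked the 6 mice in the same order (rho = 1, exact p = 0.00278, adjusted p = 0.0556, the smallest that 1 such relation alone among 20 can reach), with the 2 sets of E2f8 just described. Their r was 0.846 (exact p = 0.0236, adjusted p = 0.146). Parts of that order rest on small gaps. E2f8 was 9.029 and 9.027 in mice 1 and 2, and the G2/M mean was 9.135 and 9.130 in mice 4 and 5. E2f8 had the largest r of the 5 members with the primary granule genes, 0.854 (exact p = 0.0181, adjusted p = 0.146). Without mouse 6 this r was 0.596 over 5 mice, and leaving out each of the others in turn gave 0.821 to 0.951. Without the 2 mice farthest from the median of E2f8 it was 0.924. The rho of E2f8 with the primary granule genes over 6 mice was 0.771 (exact p = 0.103, adjusted p = 0.257). Mybl1 and the G1/S targets had r = 0.899 (exact p = 0.0472, adjusted p = 0.151), and r was -0.0837 without mice 1 and 2. Their rho was 0.543 (exact p = 0.297, adjusted p = 0.495). Both relations rest on members that split the mice into sets. Of the 20 relations 6 were under an unadjusted p of 0.05 by r and 4 by rho. Tfrc also stood higher in mice 1 and 2, at 7.71 and 7.96 against 7.05 to 7.20 in the other 4, and its part in these relations was not tested.

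**Figure D3:**
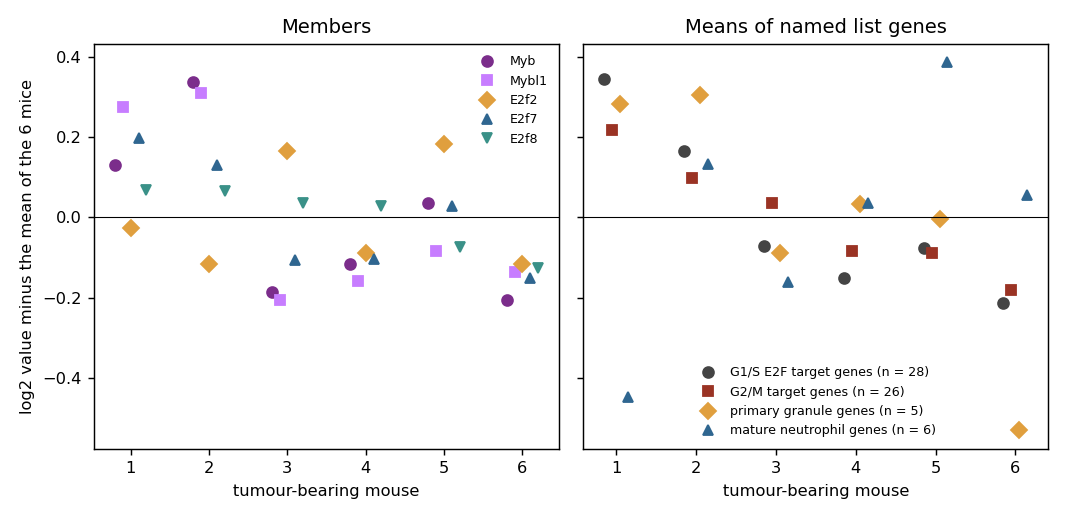
Log2 value minus the mean of the 6 tumour-bearing mice (vertical axis) for each mouse (horizontal axis), for the 5 members (left) and for the means of 4 lists (right). Mice 1 and 2 are high for Myb, Mybl1, E2f7 and the G1/S targets, whereas E2f2 is highest in mice 3 and 5.

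The named genes most like each member over the 6 mice, by Pearson's r among 894 other named genes, are given as a description. For Myb they were Mogat2 (0.972), Spc24 (0.969) and Hvcn1 (0.965). For Mybl1 they were the replication gene Gins3 (0.994), Hvcn1 (0.977) and LOC433316 (0.974). For E2f7 they were Zgrf1 (0.994), the DNA repair gene Brca1 (0.989) and the exonuclease gene Eri2 (0.989). For E2f8 they were Dnajc9 (0.986), the cohesion protector gene Sgo2a (0.965) and Cdca3 (0.964). E2f2 again stood apart, with P2rx1, an ATP-gated channel gene (0.908), Flot2, a membrane raft gene (0.899), and Ms4a2, an IgE receptor subunit gene (0.890). These values are the largest of many over 6 mice. The Ms4a2 row rests on a cDNA clone outside RefSeq, and its gene is uncertain. Over all 9 samples, where the difference between groups dominates, the closest genes were H2az2 for Myb (0.996) and E2f7 (0.999), Gins3 for Mybl1 (0.995), P2rx1 for E2f2 (0.994) and the mitotic kinase gene Aurka for E2f8 (0.998).

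The promoter letters of the lists were counted for all list genes with a RefSeq promoter, named on the array or not. The short E2F form was present in 20 of 34 G1/S target genes (58.8%) and in 3 of 23 G2/M genes (13.0%), where 7.65% of 27025 genes hold it. CHR letters were present in 17 of 23 G2/M genes (73.9%) and in 5 of 34 G1/S genes (14.7%), against 20.2% of all genes. Myb-binding letters were about as frequent in the G1/S (47.1%) and G2/M (47.8%) genes as in all genes (53.1%), and they were present in 5 of 8 primary granule genes. The lists were assembled from known targets, so these shares describe the lists. Of the E2F and CHR letters, the printed promoters of E2f2, E2f7 and Myb hold E2F letters and that of E2f8 CHR letters. This split rests on letters chosen after the sequences were read. The letters CCAAT, searched likewise, were the most frequent of those searched in both lists. They were in 67.6% of G1/S genes, 87% of G2/M genes and 41.1% of all genes. The printed E2f2, E2f7 and E2f8 promoters hold them, and that of Myb does not.

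**Figure D4:**
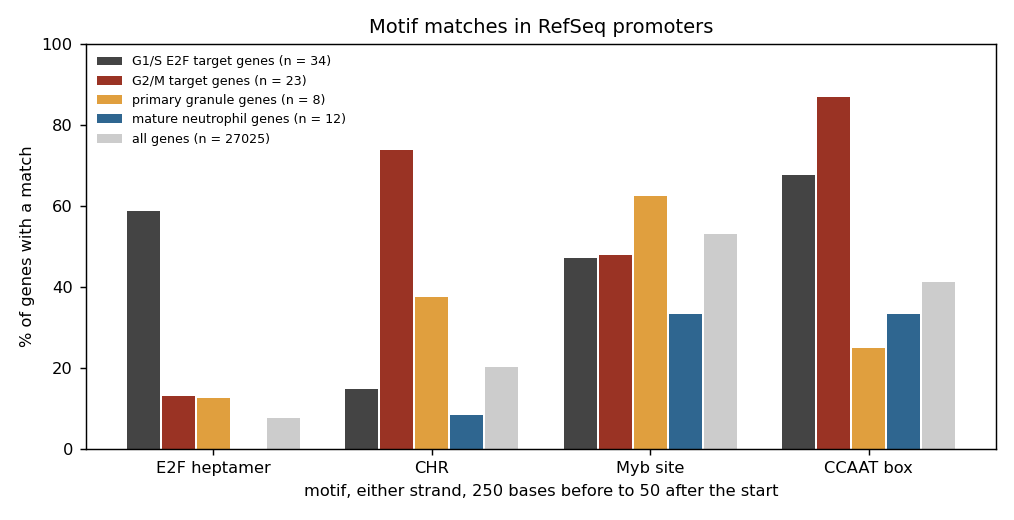
Share of genes (vertical axis, percent) whose RefSeq promoter holds each motif (horizontal axis), for 4 lists and for all genes (grey). The E2F heptamer peaks in the G1/S list at 58.8% and the CHR letters in the G2/M list at 73.9%; the CCAAT box, searched as CCAAT on both strands, is in 41.1% of all genes.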

How the data were processed

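Total RNA of the sorted cells was amplified and read on 9 Affymetrix arrays, per the labels' protocols. The deposited values are log2 expression, normalized across arrays by the authors (array medians 5.92 to 5.99). RMA, PLIER, Affymetrix Power Tools and mm9 appear in the submitters' processing notes, with versions and roles not given in the sources used here. Array number limits the precision. The authors' table matched the value table on all 9 values (964 of 964 rows), which gave those rows their names; the other 30684 are unnamed. Members and lists were chosen with earlier results of these data known.

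All rows were fitted with limma 3.58.1 (R 4.3.3; lmFit and eBayes, two-sided, Benjamini-Hochberg over 31648 rows, threshold 0.05), checked on simulated data. Correlations used exact permutation over 6 mice. The limit for separate sets of mice, the promoter letters and the count of tied values were chosen after the data were seen. Text names the members, up to 4 genes of a list by size, and 3 most like each member. Deviations from group means of mice and pools with the same number correlated at 0.08, 0.03 and 0.03, under the level taken to show pairing. Alternatives were median centring, quantile normalization, a pseudocount, a dim-row filter, array weights, a trended robust fit, list medians, equal- and unequal-variance tests (the methods' t-test and Welch), the replicate block and leaving out each sample. Label fields on embryonic age, forelimb and Shh contradict the titles and were not used.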

Additional observations from a re-analysis of the deposited data

How the results depend on the processing

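Changed rows numbered 7333, against 3812 by the Welch test and 4289 with the replicate block (over 3 mice and their 3 same-numbered pools). The other 7 alternatives gave 6611 to 7584, and leaving out 1 sample 6201 to 7113. Among those 7, the dim-row filter called 7235 of only 15824 rows, so its count is not comparable with counts over 31648 rows. The methods' t-test and the Welch test give no p for 153 rows whose 9 values are all equal. Named list genes that rose numbered 67 to 71, and 6 fell, under every alternative run. Mybl1 moved from 1.04 to 0.76 with a pseudocount of 16, and E2f8 from 1.13 to 1.05 after quantile normalization. Without 1 sample the differences were 1.49 to 1.67 for Myb, 0.93 to 1.11 for Mybl1, 1.07 to 1.13 for E2f2, 1.28 to 1.37 for E2f7 and 1.12 to 1.16 for E2f8. Of the member correlations 0 passed after adjustment under the alternatives that keep 6 mice. Without 1 mouse 0 passed too, but the smallest p that 5 mice allow for r is 0.00833, so 1 pair alone cannot go below an adjusted 0.0833 and 1 list relation alone not below 0.167, and this says nothing about stability. Averaging rows of a gene was not run, as each member has 1 row. Background signal was not used here.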
